A study of Drosophila melanogaster with 2 samples.

Results

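Peaks at the promoters of non-coding RNA genes were taken from a chromatin immunoprecipitation and sequencing (ChIP-seq) data set for the orphan receptor Hr39, a fly NR5 protein, in Drosophila melanogaster. The chromatin came from whole white prepupae of both sexes together, of unstated age, which carried Hr39 with GFP at its C terminus (the line Hr39-RC-GFP). The immunoprecipitation is described as anti-GFP, while the antibody field of the labels names Hr39. The samples formed 1 group of 2 biological replicates, numbered 1 and 3, and neither another condition nor animals without the fusion protein were analysed here. A region counted as a member when its summit, on an autosomal arm, lay within 1000 bp of a transcription start site (TSS) of a gene for an ncRNA, pre_miRNA, tRNA, snoRNA, snRNA or rRNA and over 1000 bp from every protein-coding TSS. Of the 7444 regions in the authors' optimal set, 5925 were autosomal and 271 of those were members. Being in that set did not require a candidate summit within 100 bp in each replicate. Of the 5925, 95 had one in replicate 1 alone, 310 in replicate 3 alone and 11 in neither. With no second condition, nothing below could be tested between groups, so shares and densities are descriptions set beside other peaks. The region lists hold no read counts, so the depth behind a value is unknown.

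Hr39 is a relative of the nuclear receptor Ftz-F1, and both proteins are known to bind the DNA element CAAGGTCA. White prepupae stand at the start of metamorphosis, when a pulse of the steroid hormone ecdysone resets gene activity in most tissues. Long non-coding RNAs and the primary transcripts of microRNAs (miRNAs) are made by RNA polymerase II, as are most small nuclear RNAs, whereas tRNAs and U6 are made by RNA polymerase III. Drosophila miRNAs with known parts in this transition include let-7 and its cluster partners, which time the passage from larva to adult.

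The sequences at 10 member summits are printed first, because the values below refer back to them. They are the summits of highest signal next to an ncRNA, a pre_miRNA and a tRNA gene, the summit of highest signal with an NR5 element, and summits at RNAs with known roles in timing, growth or splicing. Each holds the summit and 50 bases to each side of it in dm6, read 5′ to 3′ on the strand of the nearest non-coding gene from the RefSeq genome. Capitals mark matches, on either strand, to any of the 11 motifs searched, and a window without capitals held none.
CR46035, chr3R:17704369-17704469, plus strand: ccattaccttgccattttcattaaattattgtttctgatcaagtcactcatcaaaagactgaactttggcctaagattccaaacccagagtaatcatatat
mir-275, chr2L:7425324-7425424, plus strand: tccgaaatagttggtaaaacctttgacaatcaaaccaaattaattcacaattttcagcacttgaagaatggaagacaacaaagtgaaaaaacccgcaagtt
tRNA:Lys-TTT-1-1, chr2L:8291014-8291114, plus strand: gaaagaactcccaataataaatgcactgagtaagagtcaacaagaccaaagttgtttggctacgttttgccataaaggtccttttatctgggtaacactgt
CR44409, chr2L:17429837-17429937, plus strand: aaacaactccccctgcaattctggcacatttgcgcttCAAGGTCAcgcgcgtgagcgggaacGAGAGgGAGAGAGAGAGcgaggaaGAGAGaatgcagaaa
let7C, chr2L:18455920-18456020, plus strand: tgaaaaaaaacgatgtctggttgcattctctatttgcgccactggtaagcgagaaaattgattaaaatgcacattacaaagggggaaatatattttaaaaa
CR43626 (mir-282), chr3L:3250275-3250375, plus strand: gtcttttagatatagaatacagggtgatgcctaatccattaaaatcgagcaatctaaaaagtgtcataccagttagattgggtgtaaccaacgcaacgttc
Hsromega, chr3R:21296320-21296420, plus strand: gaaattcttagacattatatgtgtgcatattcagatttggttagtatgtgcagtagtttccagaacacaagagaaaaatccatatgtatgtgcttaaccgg
mir-2b-2, chr2L:19570907-19571007, minus strand: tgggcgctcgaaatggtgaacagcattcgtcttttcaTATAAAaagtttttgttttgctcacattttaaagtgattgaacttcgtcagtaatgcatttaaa
U1:95Ca, chr3R:23859446-23859546, minus strand: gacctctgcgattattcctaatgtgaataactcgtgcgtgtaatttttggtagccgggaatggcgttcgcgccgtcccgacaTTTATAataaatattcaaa
U6:96Ac, chr3R:24557050-24557150, plus strand: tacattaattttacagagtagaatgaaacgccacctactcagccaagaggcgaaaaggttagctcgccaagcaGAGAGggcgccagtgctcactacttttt

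One arm of the mature miRNA is shown for miRNAs whose hairpin, or the longer gene around it, had a member peak, with the seed (bases 2 to 8) in capitals. They were read from the RefSeq genome (dm6) at the annotated positions.
let-7, 5p arm: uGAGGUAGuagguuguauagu
mir-100, 5p arm: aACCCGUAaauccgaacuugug
mir-125, 5p arm: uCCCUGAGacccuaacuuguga
mir-275, 3p arm: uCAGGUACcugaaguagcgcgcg
mir-305, 5p arm: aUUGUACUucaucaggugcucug
mir-282, 5p arm: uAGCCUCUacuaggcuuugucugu
bantam (mir-ban), 3p arm: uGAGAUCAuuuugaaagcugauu
mir-279, 3p arm: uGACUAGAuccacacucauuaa
mir-996, 3p arm: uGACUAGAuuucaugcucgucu
mir-2a-1, 3p arm: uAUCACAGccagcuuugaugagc
mir-2b-2, 3p arm: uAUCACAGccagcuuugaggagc
Within this set mir-279 and mir-996 share the seed GACUAGA and lie in 1 longer gene, and mir-2a-1 and mir-2b-2 share the seed AUCACAG and lie beside 1 member peak. Each of the other miRNAs printed had a seed of its own.

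Members were mostly at long non-coding RNAs. The nearest non-coding gene belonged to the ncRNA class for 245 of the 271, and 232 of these were at 192 genes annotated as lncRNA, while 11 were at antisense RNAs. The nearest gene was a tRNA for 14 members, a pre_miRNA for 5, a snoRNA for 5 and a snRNA for 2. No member lay at an rRNA gene, of which 96 were annotated on the arms. The sources used here do not give how reads with several matches were placed. At genes with near-identical copies, a lack of peaks therefore does not show a lack of binding. The arms 2L, 3L, 2R and 3R held 77, 72, 62 and 60 members, and the small chromosome 4 held none of its 26 optimal peaks in this set. When each replicate's 5925 highest-signal autosomal regions were used alone, the rule found 267 members in replicate 1 and 256 in replicate 3, or 261.5 ± 7.78 (SD, n = 2).

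Read against the number of genes, peaks were less frequent at non-coding than at protein-coding genes in these lists. An optimal summit lay within 1000 bp of a TSS for 15.8% of the 3036 autosomal non-coding genes and for 24.7% of the 11749 protein-coding genes. Of the 2188 non-coding genes with a TSS over 1000 bp from every protein-coding TSS, 248 (11.33%) had a member peak. By class, a member peak was found at 13.25% of 1562 ncRNA genes, 3 of 25 snRNA genes, 10.53% of 190 tRNA genes, 6.0% of 150 pre_miRNA genes, 5.455% of 165 snoRNA genes and none of 96 rRNA genes. For pre_miRNA genes the TSS was the annotated 5′ end of the hairpin, and 49 of 202 hairpins lay inside longer non-coding genes. The pre_miRNA share therefore describes hairpin ends and not the starts of primary transcripts. Among all 238 snoRNA genes, 17.23% had some optimal summit within 1000 bp, so most snoRNA genes with a nearby summit (41 in all, 9 with a member) had one that also lay within 1000 bp of a protein-coding TSS. The classes differ in how tightly their genes cluster, and 1 peak can serve several neighbours, as at the tRNA genes below.

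**Figure D1:**
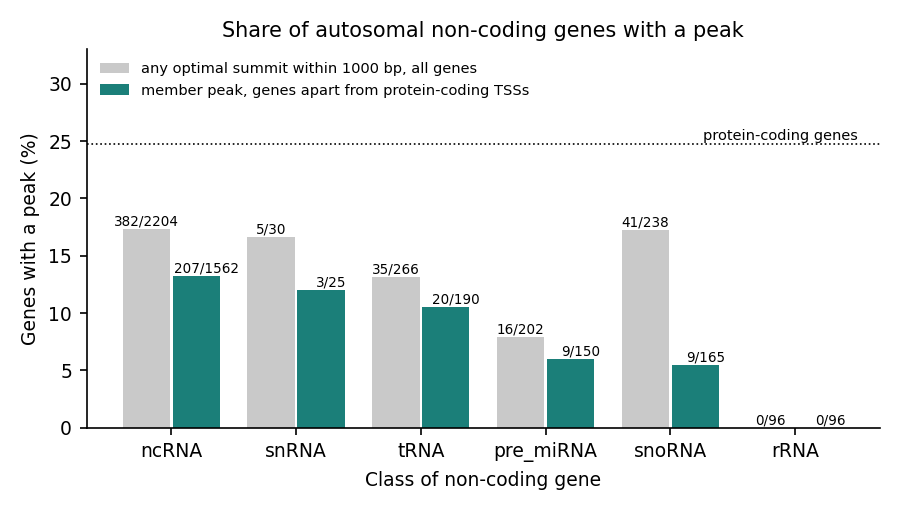
Share of autosomal genes with a peak in each class of non-coding gene, in percent. Grey bars count any optimal summit within 1000 bp over all genes of the class and green bars count member peaks over the genes apart from protein-coding TSSs, with the counts above the bars; the dotted line marks the 24.7% of protein-coding genes, and the ncRNA class has the tallest green bar at 13.25%.

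Per base, the eligible territory held more summits than the remaining arms. It covered 3.634 Mb and held 74.56 summits per Mb, against 36.75 per Mb over all other bases away from protein-coding TSSs and 113.8 per Mb within 1000 bp of a protein-coding TSS. The density was 83.4 per Mb around ncRNA genes, 55.68 around tRNA genes, 54.45 around snRNA genes, 36.66 around snoRNA genes and 21.36 around pre_miRNA hairpins. The values around snRNA, snoRNA and pre_miRNA genes rest on 2, 5 and 5 summits. With each replicate alone the density over the whole territory was 73.46 per Mb in replicate 1 and 70.44 in replicate 3, or 71.95 ± 2.14 (SD, n = 2). The 36.75 per Mb elsewhere was computed for the optimal set only and has no such spread.

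Positions within the 1000 bp were spread out. The median distance from summit to TSS was 449 bp for members and 172 bp for the 2559 autosomal peaks within 1000 bp of a protein-coding TSS. Summits within 250 bp made up 88 of the 271 members (32.47%), against 61.12% of the protein-coding promoter peaks. The share of members was 29.96% with replicate 1 alone and 32.81% with replicate 3 alone, or 31.39 ± 2.02 (SD, n = 2). The protein-coding share was computed for the optimal set only and has no such spread. Upstream of the TSS lay 52.4% of the members and 77.26% of the protein-coding promoter peaks.

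Bin by bin, the 250 bp just upstream of a non-coding TSS held 62 summits, or 120.1 per Mb, and the 250 bp just downstream held 26, or 49.27 per Mb. The corresponding protein-coding densities were 407.7 and 61.85 per Mb. A second high bin for members lay 500 to 750 bp downstream, with 47 summits and 106.3 per Mb, where protein-coding TSSs had 42.47 per Mb. Counting both sides, 77 summits at 501 to 750 bp were found in each replicate alone, beside 80 in the optimal set, 33 of them upstream. The downstream bin was not counted by replicate, so its spread is unknown. Most members (184, 67.9%) lay outside the body of the nearest non-coding gene, 72 (26.57%) in one of its exons and 15 in an intron.

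**Figure D2:**
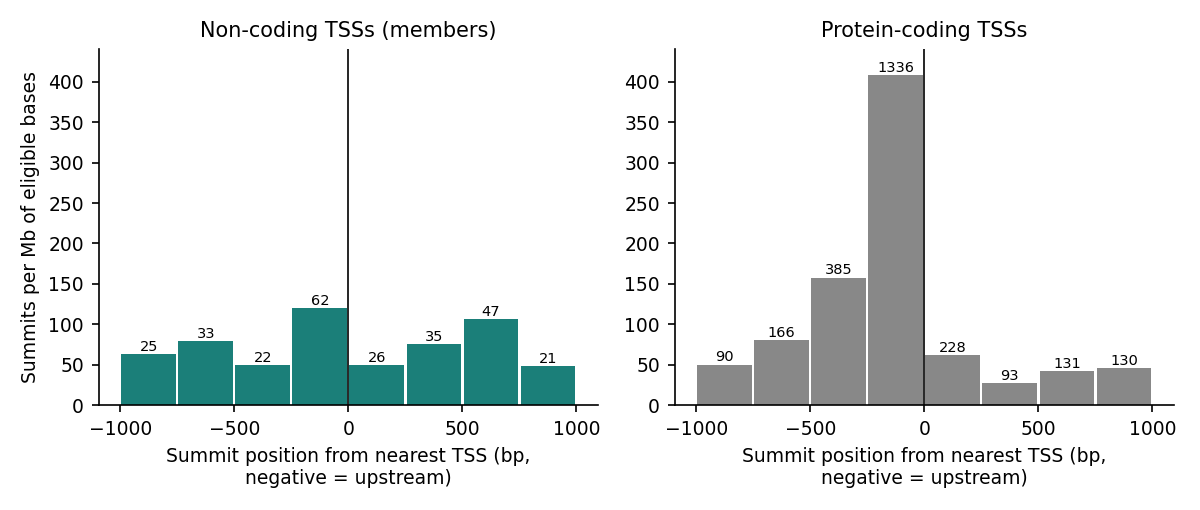
Optimal summits per Mb of eligible bases in bins of 250 bp around the nearest TSS, for members on the left and for peaks at protein-coding TSSs on the right, with the number of summits above each bar. Both panels share the vertical scale: the member bars lie between 48.66 and 120.1 per Mb, while the protein-coding bar just upstream reaches 407.7.

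The limit of 1000 bp cut through a continuous range of distances. Just inside it were asRNA:CR46264 at 990 bp (rank 1257), CR45234 at 989 bp (rank 163) and CR45737 at 987 bp (rank 73). Just outside were the summits nearest to CR43950 at 1002 bp (rank 2310), asRNA:CR43971 at 1004 bp (rank 737) and CR45030 at 1008 bp (rank 5402). Ranks throughout are those of the authors' signal among the 5925 autosomal optimal regions, with rank 1 the highest.

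In strength the members were close to the whole set. Their median rank was 3032, against 2963 for all autosomal optimal peaks, 3251 for the 3095 other peaks away from protein-coding TSSs and 2564 for protein-coding promoter peaks. The 592 highest ranks, or 9.992% of the set, held 30 members (11.07%), 6.494% of the other distal peaks and 14.11% of the protein-coding promoter peaks. Members within 250 bp of the TSS had a median rank of 3066, and those at 251 to 1000 bp a median of 3032. The 11 peaks at antisense RNAs had a median rank of 4597, against 2962 for the 232 at lncRNAs.

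The 20 members of highest signal in the ncRNA class ran from rank 11 to rank 380, and 10 of them lay inside a protein-coding gene. The strongest, at CR46035 (FBgn0267702), lay in an intron of osa, which encodes a part of the Brahma (SWI/SNF) remodeller of chromatin. Its region, chr3R:17704208-17704633 in dm6, had its summit 724 bp downstream of the lncRNA's TSS and 13931 bp from the nearest protein-coding TSS. It ranked 11 in the optimal set and 10 among the autosomal candidates of each replicate. CR46035 had another member 172 bp upstream of its TSS, at rank 244, and with one at CR46036 they made 3 members inside osa within 3798 bp.

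Rank 34 belonged to the peak 109 bp upstream of CR31044 (FBgn0051044), the longer gene around mir-279 and mir-996. mir-279 is known in flies for keeping carbon dioxide sensing neurons out of the maxillary palps. The summit ranked 38 in replicate 1 and 31 in replicate 3, and its distance to both replicate summits was 2 bp. The window had 44.55% G and C, above the 37.62% of its flanks, unlike most members.

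The next places were held by CR46102 (rank 64, 147 bp downstream of the TSS) in an intron of LpR2, a lipophorin receptor gene, and by CR45737 (rank 73), 16807 bp from any protein-coding TSS. CR45997 (rank 82) lay in an intron of mbl, which encodes the splicing factor Muscleblind, and CR44867 (rank 85) in an intron of beat-Ib, of a family with roles in axon guidance. CR43650, the longer gene around mir-8, had a peak at rank 90, and CR44676 and CR45643 had peaks at ranks 129 and 133. Each of these stood between ranks 61 and 141 in both replicates.

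Further down the same 20 were peaks at CR45234 (rank 163), asRNA:CR45804 (198, inside Prps), CR46113 (214), CR44723 (232) and asRNA:CR45999 (250). CR44331 (rank 334) lay in an intron of puc, the JNK phosphatase gene. CR44478 (337) lay in an intron of Socs36E, an inhibitor of JAK/STAT signalling, and CR43717 (361), 15 bp upstream of its TSS, in an intron of ex, a regulator of the Hippo pathway. CR43475 (376) lay in an intron of loco, a regulator of G protein signalling, and CR44363 (380) lay outside protein-coding genes. In both replicates all 20 had a candidate within 100 bp, the largest shift being 61 bp and the lowest place rank 462.

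Across the whole set, 82 members (30.26%) lay inside a protein-coding gene, where 42.0% of the bases of the eligible territory lie. Of these, 79 were in introns, 3 in non-coding parts of exons and none in coding sequence. Introns held 29.15% of members, beside 63.72% of other distal peaks, 34.35% of protein-coding promoter peaks and 49.45% of all autosomal optimal peaks. The share of bases inside protein-coding genes was computed for the eligible territory only. The 82 were spread over 72 genes, 60 of which had 1 member each. By number, kis (4 members at CR44222 and CR44218), osa and Hipk (3 each) led. Eip75B, an ecdysone-induced nuclear receptor gene, held 2 members at CR45922, the stronger at rank 2923. The genes kis, Hipk and Eip75B were singled out after their values were seen. Among 77 members inside a single protein-coding gene, the nearest non-coding gene lay on the strand of that gene in 27 (35.06%). The same share over all non-coding genes inside protein-coding genes was not computed, so this value shows no preference of the peaks for a strand.

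Peaks also came in groups. Member summits within 10000 bp of each other formed runs: 146 members stood alone, 30 runs had 2 members and 12 had 3. Among the largest, 6 members covered 15480 bp of 3R, with mtSSB or tara as the nearest protein-coding gene, at CR45639, CR45637, CR45638, CR45641 and CR45643. Another 6 covered 18214 bp of 2R at CR44379, CR44380, CR43417 and CR43650. A shorter run was on 2L, where 5 summits at CR43857 and mir-275 lay within 2434 bp. Counted by gene, 223 of the 269 genes had 1 member within 1000 bp, 38 had 2, 7 had 3 and CR43857 had 4. Most members had a single non-coding gene within reach (227 of 271), and the others had 2 to 4.

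Of the 202 autosomal miRNA hairpins, 49 lay inside 35 longer non-coding genes, and the promoter of a miRNA in this sense is that of the longer gene. Among these 35 genes, 12 (34.29%) had a member peak, against 212 of the 2169 other ncRNA genes (9.774%). In replicate 1 alone the shares were 31.43% and 9.544%, and in replicate 3 alone 34.29% and 9.221%. The 2 kinds of gene differ in ways that bear on such a share: median length was 6436 bp against 698 bp, and the mean number of TSSs per gene 1.657 against 1.053. The part of these differences in the shares was not tested. This grouping was made after values were seen.

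The 12 genes had 18 member peaks with a median rank of 3554, and 13 of the 18 summits were upstream of the nearest TSS of the gene. After CR31044, the strongest were at CR43650, around mir-8, which in flies promotes growth through insulin signalling in the fat body. Its summit at rank 90 lay 722 bp upstream of the start of the gene, and that at rank 769 lay inside the gene, 176 bp upstream of an internal TSS. CR46006, around mir-276a, had summits at ranks 805 and 5513, both inside the gene and upstream of internal TSSs. Hsromega, a heat-inducible nuclear lncRNA that organises omega speckles and holds mir-4951, had a summit 243 bp downstream of its TSS at rank 1040, 1255 in replicate 1 and 882 in replicate 3.

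CR43857, around mir-275, had 4 summits, from 879 bp upstream to 596 bp downstream, at ranks 1061, 3734, 3694 and 2172. A further summit lay inside CR43857, 421 bp upstream of the mir-275 hairpin and 598 bp from mir-305. It ranked 386, with 338 and 404 in the replicates, and was the strongest in the pre_miRNA class. CR45916, around mir-9a, a miRNA that limits sensory organ precursors, had summits at ranks 1969 and 4869. The first of these had no candidate summit within 100 bp in either replicate, the nearest being 154 bp away in replicate 1 and 114 bp away in replicate 3.

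The longer genes around let-7, bantam, mir-282 and mir-14 had peaks below the members' median rank of 3032. let7C, the primary transcript of let-7, mir-100 and mir-125, had its summit 253 bp downstream of the TSS at rank 4317, with 5381 and 4471 in the replicates. CR43334, around bantam, which promotes growth and blocks cell death, had a summit 567 bp upstream at rank 3553, with 2574 and 5130. CR43626, around mir-282, had one 269 bp upstream of an internal TSS at rank 3555, with 4084 and 3131. CR43651, around mir-14, which acts in cell death and in the ecdysone response, had one 58 bp downstream at rank 5803, with 6443 and 6572. CR44206, around mir-184, had one 27 bp downstream of an internal TSS at rank 4754, and CR45345, around mir-375, one 571 bp upstream at rank 3557.

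**Figure D3:**
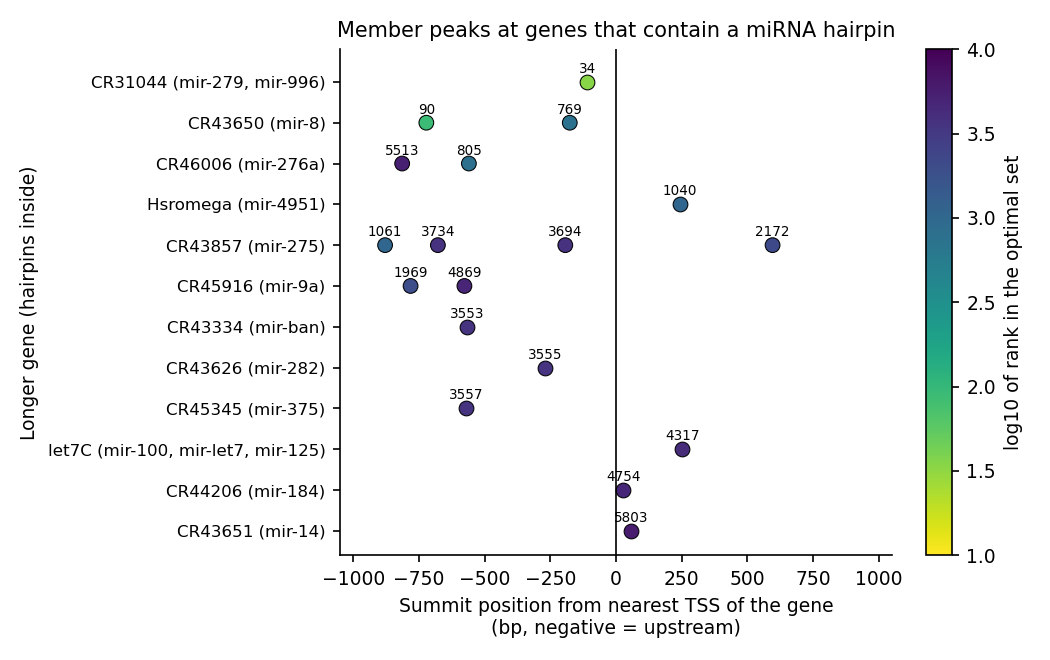
Position of the 18 member summits at the 12 longer genes that contain a miRNA hairpin, in bp from the nearest TSS of the gene, with the rank in the optimal set printed above each point and shown by colour on a log10 scale. Genes are ordered by their strongest peak, from CR31044 at rank 34 to CR43651 at rank 5803.

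The hairpins themselves were rarely close to a summit, and 11 of the 202 had a member within 1000 bp of their 5′ end. Besides mir-275, the 5 members with a hairpin as nearest gene were at mir-2b-2 (rank 3340), mir-4968 (3811), mir-4967 (4360) and mir-92b (4995). The mir-2b-2 summit lay 693 bp upstream of the hairpin, inside spi, which encodes a ligand of the epidermal growth factor receptor, and within 985 bp of mir-2a-1. mir-4968 lay in an intron of Mob2, mir-4967 in an intron of Pka-R2 and mir-92b by a summit in a non-coding exon part of jigr1. All 5 had a candidate in both replicates.

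Of 16 RNAs listed as hormone-linked or timing RNAs, 5 had a member within 1000 bp: let7C, mir-14, mir-8, mir-282 and Hsromega. The others, mir-let7, mir-100, mir-125, mir-34, mir-ban, mir-252, mir-276a, mir-276b, mir-281-1, mir-281-2 and mir-965, had none at the hairpin, and the nearest summit was 1453 bp away, at mir-ban. Among 27 listed for growth and cell death, 4 had a member: mir-275, mir-305, mir-2a-1 and mir-2b-2. Without one were mir-278, mir-263b, mir-2a-2, mir-2b-1, mir-13a, mir-13b-1, mir-6-1, mir-6-2, mir-6-3, mir-11, mir-306, mir-79, mir-9a, mir-9b, mir-9c, mir-7, mir-1, mir-184, mir-279, mir-996, mir-33, mir-277 and mir-317. For mir-279 the hairpin was 1132 bp from the rank 34 summit at the start of its longer gene. These shares with a member, 31.25% and 14.81%, stand beside 269 of all 3036 non-coding genes and 11 of 202 pre_miRNA genes. For any optimal summit nearby the lists had the same shares, beside 15.8% of all non-coding genes and 7.921% of pre_miRNA genes. In the growth list, mir-275 and mir-305 share the summit at rank 386, and mir-2a-1 and mir-2b-2 share that at rank 3340.

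At tRNA genes the 14 members lay 45 to 904 bp from the nearest tRNA, with a median of 578.5 bp, and 2 lay within 250 bp. The strongest were at tRNA:Lys-TTT-1-1 (rank 744), in an intron of the kinase gene Btk, and tRNA:Leu-CAA-2-2 (rank 826). tRNA:Pro-AGG-1-2 (1824), tRNA:Glu-CTC-3-1 (1906), tRNA:Gly-GCC-1-6 (2254), tRNA:Thr-AGT-1-1 (3008), tRNA:Val-CAC-1-1 (3070) and tRNA:Gly-TCC-2-2 (3454) followed. tRNA:Thr-AGT-1-1 lay in an intron of tai. None of the 14 reached the 592 highest ranks. Because tRNA genes sit in groups, 22 of the 266 had a member within 1000 bp. By isotype the largest counts were 5 of 14 proline and 4 of 19 glutamate genes, while several isotypes had none, such as aspartate (0 of 14) and serine (0 of 12). These counts repeat shared peaks, as tRNA:Pro-AGG-1-2 and tRNA:Pro-AGG-1-3 have 1 summit between them. Of the 22 genes, 17 had another tRNA gene within 10000 bp, as did 192 of the 244 other tRNA genes. The B box letters GGTTCGA, which lie inside tRNA genes and are read by polymerase III factors, occurred in none of the member windows and in 0.4051% of all autosomal optimal windows.

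The replicate lists differed at small RNA genes of several classes. Of the autosomal candidates that met the rule, 106 of 1182 (8.97%) in replicate 3 were at tRNA genes, against 51 of 1103 (4.62%) in replicate 1. At pre_miRNA hairpins there were 55 in replicate 3 and 35 in replicate 1, at snoRNA genes 18 and 10, at snRNA genes 17 and 7, and at ncRNA genes 986 and 999. At rRNA genes there were 0 in replicate 3 and 1 in replicate 1. Among the 5925 highest-signal regions of each replicate, tRNA members numbered 14 in replicate 3 and 15 in replicate 1, while snRNA members numbered 4 and none. In the same order, pre_miRNA members numbered 4 and 7, and snoRNA members 5 and 4.

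Both snRNA members rested on replicate 3. The summit 115 bp upstream of U6:96Ac, a gene for the U6 RNA of the spliceosome, ranked 1505, had a candidate 1 bp away at rank 1534 in replicate 3, and had none nearer than 8192 bp in replicate 1. It also lay 408 bp from U6:96Ab. The summit at U1:95Ca, a gene for the U1 RNA that binds 5′ splice sites, was inside the gene, 134 bp from its start, at rank 3608. Its nearest candidate was 4 bp away in replicate 3 and 11598 bp away in replicate 1. U1 and U6 genes, like tRNA genes, have near-identical copies, and the sources used here do not give how reads with several matches were placed, so the copy that carried the signal is uncertain. In the U6:96Ac window the share of G and C was 46.53% against 28.22% in the flanks, and in the U1:95Ca window it was 42.57% against 34.16%.

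The 5 members of the snoRNA class were at snoRNA:Or-CD13 (rank 1158), snoRNA:Me18S-G1358a (1718), snoRNA:Or-CD4 (2272), snoRNA:abba-a (4674) and snoRNA:185 (5448). They lay 188 to 698 bp from the snoRNA, and the peak at Or-CD13, in an intron of egr, which encodes the fly tumour necrosis factor, was also within 928 bp of scaRNA:MeU1b-A234. A further member, at snoRNA:Or-ACA9 (rank 3398) in an intron of AdamTS-A, was counted in the ncRNA class, where the annotation puts that gene. It was singled out after its values were seen. None of the 7 Uhg genes, the hosts of snoRNAs, had a member. Uhg4 (rank 684), Uhg1 (2408) and Uhg8 (3074) had an optimal summit within 1000 bp, but it was shared with a protein-coding TSS, while Uhg2, Uhg3, Uhg5 and Uhg7 had none. Of 49 housekeeping small RNAs, 4 had a member, beside 269 of all 3036 non-coding genes, namely MeU1b-A234, U1:95Ca, U6:96Ab and U6:96Ac. With summits shared with protein-coding TSSs, 7SKa, U11 and MeU5-C46 brought the count to 7 (14.29%), beside 15.8% of all non-coding genes. The genes for 7SL RNA, RNase P RNA, RNase MRP RNA and the U2, U4, U5, U7 and U12 RNAs had none.

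Of the 1164 pooled autosomal candidates that met the rule, 271 (23.28%) entered the optimal set, against 25.4% of all autosomal candidates, 19.57% of other distal ones and 40.11% of those at protein-coding TSSs. The share was 23.88% at ncRNA genes, 20.59% at tRNA genes, 11.9% at pre_miRNA hairpins, 16.67% of 12 candidates at snRNA genes and 31.25% of 16 at snoRNA genes, and no candidate lay at an rRNA gene.

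In both replicates, 257 members (94.83%) had a candidate summit within 100 bp, beside 93.0% of all autosomal optimal peaks. Of the rest, 5 had one in replicate 1 alone, 7 in replicate 3 alone and 2 in neither. Ranks in the 2 lists rose together across the 257 (Spearman's rho 0.866, a description across regions that share both libraries), as they did across other distal peaks (0.868). The authors name the optimal set as thresholded by IDR, a measure of agreement between replicates. The shares and rho values here therefore describe peaks already chosen for such agreement, and are no separate measure of it. The larger of the shifts in summit position had a median of 19 bp. Members far from equal ranks included CR45148, ranked 7728 in replicate 1 and 808 in replicate 3, and tRNA:Arg-CCT-1-3, ranked 16768 and 4145. The candidates matched to that CR45148 summit were 94 bp away in replicate 1 and 56 bp away in replicate 3. Whether both of its ranks belong to the same site was not tested.

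**Figure D4:**
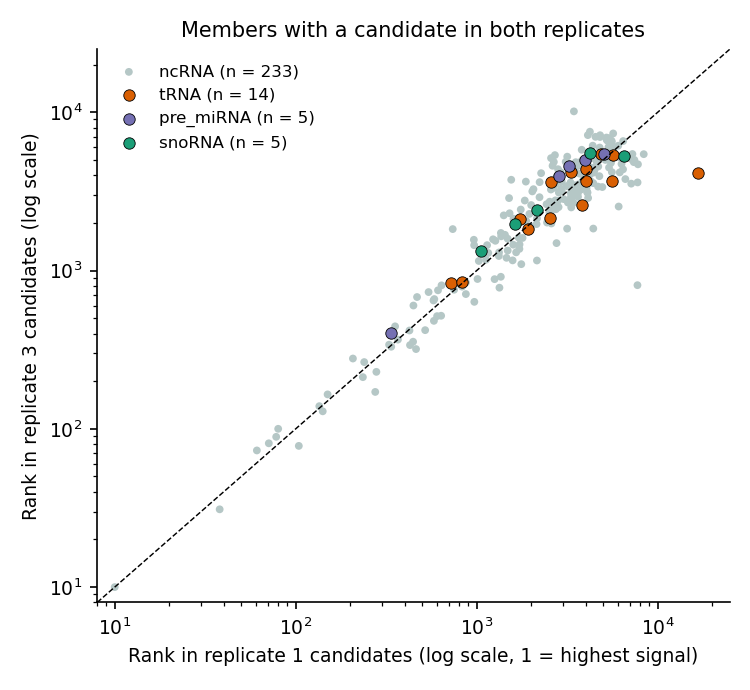
Rank of the 257 members with a candidate summit in both replicates, replicate 1 on the horizontal and replicate 3 on the vertical axis, both on a log scale with rank 1 the highest signal, coloured by class of the nearest non-coding gene. Points follow the dashed line of equal ranks (Spearman's rho 0.866), and both snRNA members are missing because replicate 1 had no candidate there.

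Summits were poor in G and C relative to their surroundings. Within 50 bp of the summit the mean was 33.32 ± 7.413% (SD over 271 peaks, which are not replicates), and in windows 500 bp to each side it was 43.91 ± 7.649%. G and C fell below the flank value at 229 members (84.5%), which is near the 83.11% of all autosomal optimal peaks and the 86.07% of other distal peaks. With the regions of each replicate alone the mean at summits was 33.59% in replicate 1 and 32.87% in replicate 3, or 33.23 ± 0.514% (SD, n = 2). At ncRNA genes 86.53% of summits were lower than their flanks, at tRNA genes 71.43%, at snoRNA genes 2 of 5 and at snRNA genes neither.

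**Figure D5:**
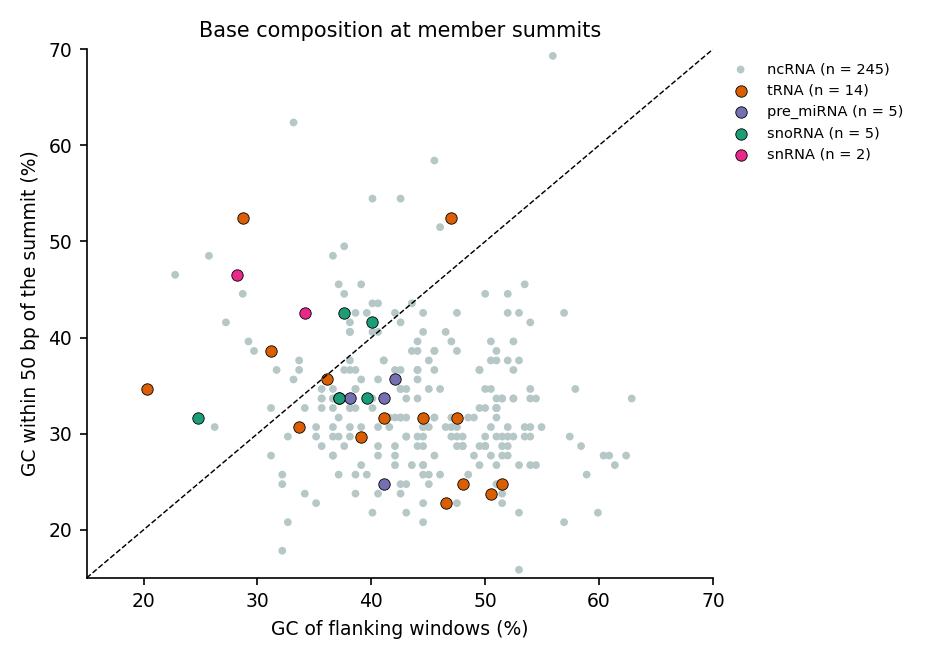
Percent G and C within 50 bp of each member summit against the mean of the windows 500 bp to each side, coloured by class of the nearest non-coding gene. Most points (229 of 271) lie below the dashed line of equality, and both snRNA members lie above it.

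The NR5 element CAAGGTCA was present at 2 members (0.738%), CR44409 and CR45755, beside 0.3376% of all autosomal optimal peaks and 0.2378% of windows of the same length over the autosomal arms. CR44409 (rank 765) lies in an intron of Dif, an NF-kappaB factor of immunity, 181 bp downstream of the lncRNA's TSS, and its window above also holds runs of GAGAG. CR45755 ranked 4205, 978 bp upstream of its TSS. The form CAAGGCCA was present at 1 member, marge (rank 1947), or 0.369% of members, beside 0.1857% of all peaks and 0.348% of genome windows. The shorter receptor site AGGTCA, which overlaps the NR5 element, was found at 5 members (1.845%), at 2.076% of all peaks and at 2.754% of genome windows. AAGGTCA, which overlaps it too, was present at the same 2 members as CAAGGTCA (0.738%), at 1.03% of all peaks and at 0.9651% of genome windows.

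Of the other letters searched on both strands, TATAAA was present at 62 members (22.88%), 20.73% of all optimal peaks and 11.91% of genome windows. GAGAG was present at 8.487% of members, 9.03% of all peaks and 11.44% of genome windows. TATCGATA, bound by DREF at many protein-coding promoters, was present at 1 member (0.369%), 1.266% of all peaks and 0.1939% of other distal peaks. CAGGTAG was present at 2 members (0.738%), 0.4051% of all peaks and 0.5432% of genome windows. CACGTG and GGTCACACT were present at no member, beside 0.6414% and 0.5232% of all peaks. A match describes the letters in the window only. The genome windows, here and for the receptor sites above, were not matched to the summits in G and C. Member summits had a mean of 33.32% G and C, against 43.91% in their flanks. The part of base composition in these shares was not tested.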

How the data were processed

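Per the labels' protocols, chromatin of 2 biological replicates was sonicated to a size range of 200 to 800 (unit not stated). The authors deposited dm6 region lists with a signal per region: 30000 candidates for each replicate, 28773 for both pooled and 7444 in the optimal set. The sources used here give no aligner, peak caller or rule for multi-mapping reads. The lists hold no read counts, so depth is unknown. The deposited signal was used only for ranks within a list.

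Classes and TSSs came from Ensembl 115; a gene with a pre_miRNA transcript was put in the pre_miRNA class, and a summit in the class of its nearest non-coding TSS. RefSeq supplied sequence and mature miRNA positions. The tools were Python 3.11.15, numpy 2.4.6, pandas 2.3.3, scipy 1.17.1 and matplotlib 3.10.9; the rule was tested on simulated data. The member set and lists were chosen with earlier results of these data known. Named genes were the 20 ncRNA, 12 pre_miRNA, 8 tRNA, 6 snoRNA, 6 snRNA and 6 rRNA members of highest signal (all where fewer), genes of the fixed lists, and neighbours of the distance limit; motif matches, runs, longer genes around hairpins and members with unequal replicate ranks were named after their values were seen; let-7-C was read as let7C, and 6 listed names were left out as on X or without a match. Replicates alone were taken as their 5925 highest-signal autosomal regions.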

Additional observations from a re-analysis of the deposited data

How the results depend on the processing

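The number of members and of genes with one depended mainly on the distance limit. Within 500 bp of a non-coding TSS there were 145 members and 144 genes, and within 250 bp there were 88 members and 90 genes, while the main values were 271 and 269. Optimal peaks with signal above their median, a cut that itself removes peaks, gave 131 members and 137 genes. Protein-coding limits of 500 and 2000 bp, gene starts alone, any base of the region, pseudogenes and each replicate alone stayed within 1.5 times of the main counts (256 to 267 members and 253 to 257 genes with 1 replicate). The share with a summit in both replicates was 85.24% within 50 bp, 98.15% within 200 bp, 98.52% by overlap and 80.07% with the highest-signal regions of each replicate. The median rank was 2892 for summits within 500 bp and 2839 to 2910 with 1 replicate. Summits within 250 bp made up 60.69% of those within 500 bp, which the limit itself raises, and 29.96% to 32.81% with 1 replicate. Mean G and C was 33.92% for summits within 500 bp, 32.5% above the median signal, 35.03% in windows of 100 bp to each side and 32.87% to 33.59% with 1 replicate. Density was 74.36 per Mb within 500 bp and 70.44 to 73.46 with 1 replicate. Above the median signal it was 36.04 per Mb, which the cut itself lowers by removing peaks. The density over other bases was not computed with that cut. Depth is unknown, and 2 replicates give a rough spread.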
